A study of Homo sapiens with 61 samples.

Results

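The clustered protocadherins are cell-surface adhesion proteins encoded by neighbouring genes on chromosome 5. All protein-coding genes with a symbol of the PCDHA, PCDHB, PCDHGA, PCDHGB or PCDHGC series were taken, which gave 53 of the 58440 genes in the deposited count tables. They comprise 15 alpha, 16 beta and 22 gamma isoforms between positions 140786136 and 141512981 of chromosome 5 (GRCh38, gene models of GENCODE release 29). The counts came from poly(A) RNA-seq of 61 cultures in which the transcription factor NGN2 had turned cells of the human line WTC11, a widely used line of induced pluripotent stem cells, into neurons labelled as cortical.

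Experiment 1 held 32 libraries from WT and 3 knockout lines, which lack DLK (DLK KO), LZK (LZK KO) or both (DLK LZK double KO), each untreated or given vincristine, with 4 libraries a group. DLK (gene MAP3K12) and LZK (MAP3K13) are related kinases that signal axon damage. Experiment 2 held 29 libraries of neurons that carried CRISPR interference machinery and a lentiviral guide RNA, which was a scrambled Control gRNA, an ATF2 gRNA or a JUN gRNA. These were also untreated or given vincristine, with 5 libraries a group except for ATF2 gRNA with vincristine, which had 4. ATF2 and JUN are transcription factors that stress kinases activate. Vincristine, a drug that disrupts microtubules, was applied at 5 nM for 16 hours, and untreated cultures received the solvent DMSO. All cultures were at day 14. Each knockout genotype was represented by 1 line, so that an effect of the lost kinase and a property of that line cannot be told apart. The labels do not say whether libraries of a group came from separate differentiations, so p-values measure the spread between these cultures. In these bulk samples, fewer cells using an isoform and less RNA per cell cannot be told apart.

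Each alpha and gamma isoform begins with its own variable exon, which carries its own promoter and is spliced to constant exons shared by that cluster, whereas the beta isoforms are encoded by single exons without shared constant exons. Neurons are known to switch on a small, partly random subset of the variable promoters, and the resulting mix of isoforms at the cell surface gives a neuron an identity that its own branches recognise and avoid. Binding of CTCF and cohesin to sequences in these promoters loops them to distal enhancers, and DNA methylation silences the promoters that are not used. The C-type isoforms PCDHAC1, PCDHAC2, PCDHGC3, PCDHGC4 and PCDHGC5 lie at the ends of the alpha and gamma clusters and are known to be used more evenly between neurons.

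Promoters of 8 isoforms that the results describe are shown here for the element that carries the core CGCT. They were picked as examples of each cluster, after the values were seen, and do not include every leader. The sequences are the 100 bases before the start of the RefSeq gene (GRCh38.p14, plus strand, written 5′ to 3′), and capitals mark the match to the motif of that cluster. PCDHA2, highest in WT among the lines of experiment 1, is at chr5:140794752-140794851. PCDHAC1 at chr5:140926199-140926298 is a C-type promoter with no match. PCDHB3 at chr5:141100373-141100472 and PCDHB5 at chr5:141135106-141135205 hold the beta motif. PCDHGA1 at chr5:141330414-141330513 and PCDHGA3 at chr5:141343729-141343828 belong to the first gamma isoforms, which only the double KO line held at more than a trace in experiment 1. PCDHGB4 at chr5:141387598-141387697 and PCDHGB6 at chr5:141407921-141408020 were leading gamma isoforms.
PCDHA2: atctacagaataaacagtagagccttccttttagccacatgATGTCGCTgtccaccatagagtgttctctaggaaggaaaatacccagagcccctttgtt
PCDHAC1: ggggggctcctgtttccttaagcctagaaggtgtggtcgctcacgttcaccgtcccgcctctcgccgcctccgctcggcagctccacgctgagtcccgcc
PCDHB3: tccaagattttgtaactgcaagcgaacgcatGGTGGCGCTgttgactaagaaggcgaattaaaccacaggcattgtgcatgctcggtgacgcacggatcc
PCDHB5: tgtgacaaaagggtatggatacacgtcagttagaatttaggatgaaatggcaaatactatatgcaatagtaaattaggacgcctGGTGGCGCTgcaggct
PCDHGA1: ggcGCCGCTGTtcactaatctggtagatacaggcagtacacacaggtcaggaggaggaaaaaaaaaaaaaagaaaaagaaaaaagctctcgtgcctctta
PCDHGA3: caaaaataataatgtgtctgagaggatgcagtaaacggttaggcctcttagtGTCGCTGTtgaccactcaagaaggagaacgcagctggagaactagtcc
PCDHGB4: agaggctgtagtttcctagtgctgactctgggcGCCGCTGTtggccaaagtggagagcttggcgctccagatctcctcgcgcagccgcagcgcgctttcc
PCDHGB6: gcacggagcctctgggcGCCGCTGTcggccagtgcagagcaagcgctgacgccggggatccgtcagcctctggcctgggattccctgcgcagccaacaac

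RefSeq promoters were matched by symbol for 47 of the 53 members. The motifs were chosen from these sequences, so their counts within the family are a description. In the 250 bases before the start, on either strand, ATGTCGCT was found in 9 of 13 alpha promoters, in 0 of the 14 beta and 0 of the 20 gamma promoters, and in 0.158% of the 27258 other promoters. GGTGGCGCT was found in 12 of the 14 beta promoters, in no alpha or gamma promoter and in 0.385% of the others. GNCGCTGT, where N is any base, was found in 17 of the 20 gamma promoters, 5 of the 13 alpha promoters, 1 beta promoter and 3.29% of the others. The gamma promoters without it were those of PCDHGB3, PCDHGB7 and PCDHGA11. The letters CGCT lie inside all of these motifs, and the alpha and gamma motifs can overlap around them. By themselves CGCT occurred in 12 of the 13 alpha, 13 of the 14 beta and all 20 gamma promoters, against 64.2% of the others. The motif began at a median of 52 bases before the start in alpha, 66.5 in beta and 60.0 in gamma promoters. PCDHGA1 and PCDHGA3, nearly silent in WT and high in the double KO line, and PCDHGB4 and PCDHGB6, high in both, all hold the gamma motif. PCDHGB7, the gamma isoform that rose in DLK KO, is without it in this window. PCDHGB3, also without it, was called lower in DLK KO, a call lost in some alternatives. A link between the motif and these levels was not tested.

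Libraries held 8410729 to 14647819 counts in experiment 1 and 38925807 to 88392414 counts in experiment 2. The experiments were scaled separately, so levels are compared within an experiment. Levels are given as CPM, which are counts scaled to a common library total, and levels of different isoforms are compared as CPM per kb of exonic bases that no other gene shares. The targeted RNAs checked the labels: untreated MAP3K12 stood at 28.9% of WT in DLK KO and 21.6% in the double KO, MAP3K13 at 32.2% of WT in LZK KO and 29.9% in the double KO, ATF2 at 0.409% of Control under its guide and JUN at 3.24%. JUN was also low in untreated ATF2 gRNA, at a mean of 21.0 CPM against 88.5 CPM in Control gRNA. All 10 neuronal markers were at 1 CPM or more, with summed levels of 12475 to 19328 CPM per library in experiment 1 and 10550 to 14930 CPM in experiment 2. Untreated, in the order WT, DLK KO, LZK KO, double KO, the 6 progenitor markers summed to means of 748, 248, 596 and 127.5 CPM and the 7 pluripotency markers to 11.5, 23.4, 26.2 and 76.0 CPM. Glial markers summed to at most 51.5 CPM, inhibitory neuron markers to at most 32.5 CPM and peripheral neuron markers to between 113.4 and 529.2 CPM. Untreated, the inhibitory sum had a mean of 25.7 CPM in ATF2 gRNA, 1.18 CPM in Control gRNA and 1.53 CPM in JUN gRNA. These sums cannot tell other cells from marker RNA made in the neurons, and their part in the results was not tested. WT vincristine replicate 4 stood apart from its group, with a progenitor sum of 923 CPM against 1581 to 1952 CPM in the other 3 libraries.

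In experiment 1, 51 of the 53 members passed the filter on low counts. PCDHA1 held at most 8 counts and PCDHB1 at most 10 in any library. In experiment 2, 50 passed, with PCDHA1, PCDHB1 and PCDHGA12 at no more than 31, 28 and 27 counts. The isoforms that were high or low differed between WT and the knockout lines, while the guide RNA groups of experiment 2 resembled each other in their leaders. Libraries of a line resembled each other with or without vincristine, as the map of levels by library shows.

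**Figure D1:**
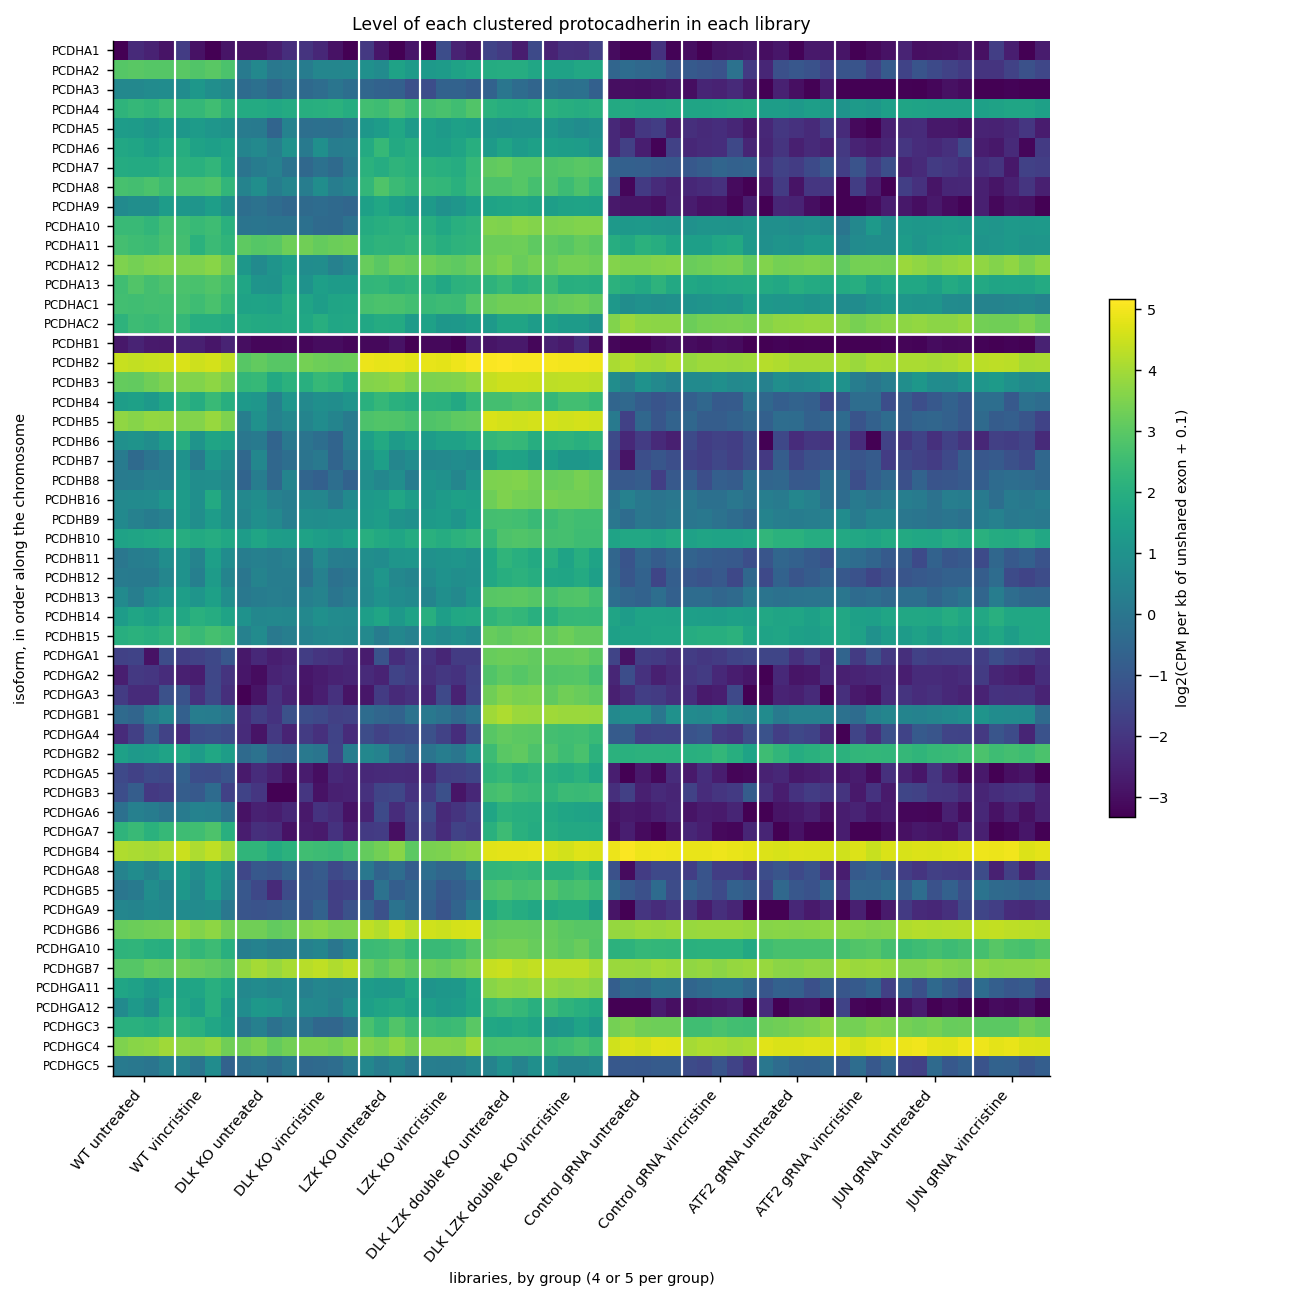
Level of each of the 53 isoforms (rows, in order along the chromosome, white lines between the alpha, beta and gamma clusters) in each of the 61 libraries (columns, by group), as log2(CPM per kb of unshared exon + 0.1). Libraries of a line share a pattern with or without vincristine, and PCDHGA1, PCDHGA2 and PCDHGA3 are bright in the double KO line alone.

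In untreated WT neurons the alpha cluster was spread over many isoforms. PCDHA12 held 15.7% ± 0.753 (SD, n = 4) of the summed alpha level, PCDHA2 10.7% ± 0.465 and PCDHA13 9.13% ± 0.729. The beta cluster was led by PCDHB2 with 31.7% ± 1.23, PCDHB5 with 19.3% ± 1.08 and PCDHB3 with 14.2% ± 0.928. The gamma cluster was led by PCDHGB4 with 22.2% ± 1.40, the C-type PCDHGC4 with 17.0% ± 1.33 and PCDHGB6 with 12.6% ± 0.474. The effective number of isoforms, which is 1 over the sum of squared shares and equals the number of isoforms when all are level, was 11.3 for alpha, 5.87 for beta and 8.34 for gamma.

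The DLK KO line concentrated its gamma output on fewer isoforms. PCDHGB7 held 32.0% ± 1.79 (SD, n = 4), PCDHGC4 20.9% ± 0.650 and PCDHGB6 19.9% ± 1.17, together 72.7% of the gamma level against 51.75% for the leading 3 in WT. The effective number of gamma isoforms was 5.06, and 9 of the 22 gamma isoforms were below 1 CPM in every library, against 3 in WT. In its alpha cluster PCDHA11 led with 26.6% ± 1.60, followed by PCDHAC2 with 11.25% and PCDHA4 with 11.2%, for an effective number of 7.94. PCDHB2 led beta with 26.6% ± 1.63, then PCDHB3 with 14.6% and PCDHB10 with 8.89%. The effective number of beta isoforms was 8.15, above the 5.87 of WT.

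The LZK KO line kept an alpha spread like that of WT, with an effective number of 11.4, led by PCDHA12 at 14.9% ± 1.36 (SD, n = 4), PCDHAC1 at 10.9% and PCDHA4 at 10.2%. PCDHB2 took 38.1% ± 1.22 of its beta level, PCDHB3 15.95% and PCDHB5 9.07%. PCDHGB6 led gamma with 27.5% ± 0.786, ahead of PCDHGC4 with 15.7% and PCDHGB4 with 13.3%. The double KO line used the gamma cluster most evenly, with an effective number of 14.6 and all 22 isoforms at 1 CPM or more in every library. Its leaders were PCDHGB4 with 14.9%, PCDHGB7 with 11.1% and PCDHGB1 with 8.10%, which made up 34.05% together. Its alpha leaders were PCDHA10 with 15.0% ± 0.874, PCDHA12 with 12.9% and PCDHAC1 with 12.4%, and its beta leaders PCDHB2 with 21.8%, PCDHB5 with 15.5% and PCDHB3 with 14.1%.

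The 3 guide lines of experiment 2 resembled each other in their leaders. For Control, ATF2 and JUN gRNA in that order, PCDHAC2 held 31.6% ± 2.55 (SD, n = 5), 36.3% and 32.95% of the alpha level, and PCDHA12 held 28.4%, 29.2% and 33.6%. PCDHA13 came next with 9.34%, 9.50% and 7.87%. PCDHB2 held 51.8% ± 2.64, 48.8% and 51.0% of the beta level. The next beta isoforms were PCDHB10 with 9.86%, 11.7% and 10.0%, then PCDHB15 with 8.92% (Control) and PCDHB14 with 8.89% and 9.87% (ATF2 and JUN). In gamma, PCDHGB4 held 28.6%, 24.8% and 23.6%, and PCDHGC4 23.1%, 25.5% and 26.6%. The third gamma isoform was PCDHGB7 with 13.6% and 12.7% for Control and ATF2, but PCDHGB6 with 16.6% for JUN.

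Across all 14 groups, treated ones included, PCDHB2 was the leading beta isoform in 14. PCDHA12 led alpha in 6 groups, PCDHAC2 in 4, PCDHA10 in 2 and PCDHA11 in 2. PCDHGB4 led gamma in 7, PCDHGC4 in 3, PCDHGB6 in 2 and PCDHGB7 in 2. Alpha and gamma leaders depend on how length is counted, also where the shares are not close. In DLK KO, raw counts put PCDHA4 with 27.2% ahead of PCDHA11 with 20.5% in alpha. In gamma they put PCDHGB6 with 28.55% ahead of PCDHGB7 with 27.8%. With shares of raw counts, 3 of the 7 untreated groups kept the same alpha leader, 7 the same beta leader and 4 the same gamma leader, and with the full gene length in the files 5, 7 and 4 did. PCDHA4, PCDHA9 and PCDHA10 have 10574, 7209 and 10002 unshared bases, which lowers their level per kb.

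The summed level also differed between lines. Untreated, in the order WT, DLK KO, LZK KO, double KO, the alpha cluster summed to 71.1 ± 2.57, 31.1 ± 2.62, 58.65 ± 2.78 and 79.0 ± 2.23 CPM per kb (SD, n = 4). The beta cluster summed to 67.95 ± 4.39, 29.8 ± 3.35, 75.3 ± 3.23 and 157.0 ± 4.58 CPM per kb. The gamma cluster summed to 76.4 ± 4.41, 47.3 ± 3.27, 73.5 ± 6.85 and 188.5 ± 8.22. All 3 sums of the DLK KO line lay below those of the other lines, library by library, and the beta and gamma sums of the double KO line above them. In experiment 2 the 3 lines were close, with alpha sums for Control, ATF2 and JUN gRNA of 41.0 ± 0.769 (SD, n = 5), 37.1 and 39.98 CPM per kb, beta sums of 32.6, 34.6 and 33.4, and gamma sums of 109.6, 102.6 and 110.3.

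The C-type isoforms were present in every group but not level between lines. In the order WT, DLK KO, LZK KO, double KO, PCDHAC1 stood at 24.2 ± 0.487 (SD, n = 4), 12.4 ± 1.64, 26.0 and 39.8 CPM untreated, and at 7.56, 8.54 and 7.56 CPM in Control, ATF2 and JUN gRNA. PCDHAC2 stood at 18.0 ± 2.13, 12.0, 11.0 and 9.28 CPM in the knockout series and at 44.7, 46.5 and 45.45 CPM in the guide lines. PCDHGC3, the C-type isoform that has been tied to dendrite branching, stood at 13.3, 3.14, 19.6 and 10.4 CPM, and at 33.0, 35.3 and 31.5 CPM. PCDHGC4, which has been tied to the survival of neurons, stood at 36.35, 27.6, 32.3 and 18.35 CPM, and at 70.8, 73.1 and 82.05 CPM. PCDHGC5 was low throughout, at 2.85, 2.28, 3.35 and 4.31 CPM and at 1.18, 1.85 and 1.12 CPM.

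**Figure D2:**
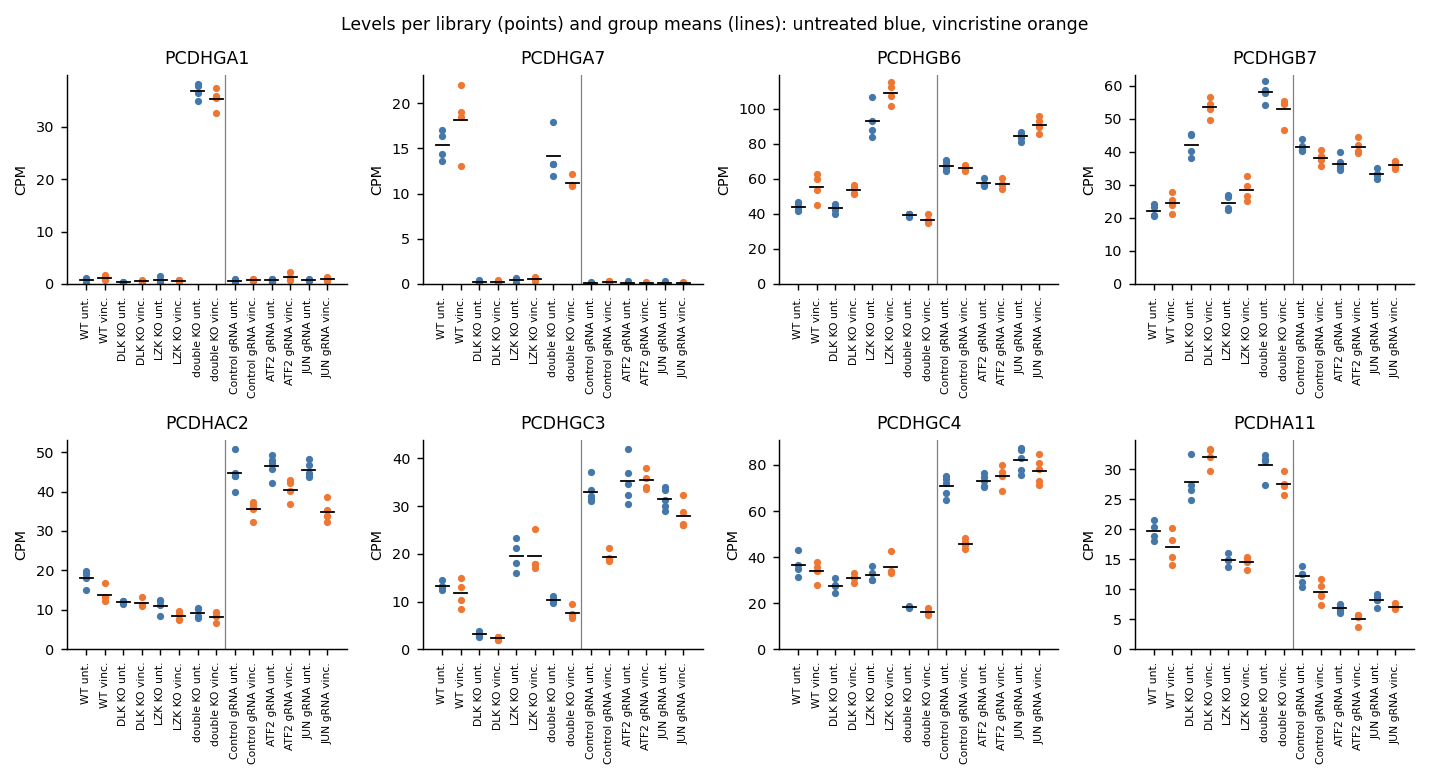
Level in CPM (y axis, linear) of 8 isoforms in each library (points; blue untreated, orange vincristine) with group means (black lines); the vertical grey line separates the experiments, which were scaled separately. PCDHGA1 is above a trace only in the double KO line, at 35.0 to 38.1 CPM untreated, PCDHGA7 only in WT and the double KO line, and PCDHGC3 and PCDHGC4 are lower with vincristine in Control gRNA.

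Comparisons between lines used edgeR's quasi-likelihood test with Benjamini-Hochberg adjustment over all genes, and a member was called at an adjusted p under 0.05. In untreated DLK KO against WT, 39 of 51 members were called, 2 higher and 37 lower, where 34.5% of all genes tested were called, 16.5% higher and 17.9% lower. All 14 tested alpha isoforms changed, 13 of them downward. Of the 15 tested beta isoforms 8 fell, and of the 22 gamma isoforms 16 fell and 1 rose. The median log2 fold change over the members was -1.29, beside 0.01 over all genes. This comparison has a shift of the chromosome beside it, given after the comparisons between lines.

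PCDHGA7 gave the largest fall. It stood at 14.4, 17.05, 13.6 and 16.4 CPM in the WT libraries and at 0.191, 0.399, 0.354 and 0.108 CPM in the DLK KO libraries, which is 1 to 4 counts each. The groups did not overlap, and the log2 fold change was -5.78 (SE 0.268, adjusted p = 2.59e-19, edgeR). PCDHB5 fell from 45.8, 41.1, 46.2 and 45.5 CPM to 3.83, 6.38, 4.15 and 4.95 CPM, a log2 fold change of -3.21 (SE 0.111, adjusted p = 5.61e-23, edgeR). PCDHA2 fell from 19.6, 20.7, 19.8 and 19.7 CPM to 2.68, 3.79, 2.48 and 2.80 CPM. PCDHA12, the WT alpha leader, fell from 27.0 to 30.1 CPM in WT to 4.09 to 6.56 CPM. In each of these the lowest WT library was several times the highest DLK KO library. PCDHGA6, PCDHA10, PCDHGB5, PCDHGB1, PCDHA8 and the C-type PCDHGC3 followed, with log2 fold changes of -3.90, -2.62, -2.27, -2.24, -2.18 and -2.09 and no overlap between the groups.

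Against that direction, PCDHGB7 and PCDHA11 rose in DLK KO. PCDHGB7 went from 20.65, 20.8, 24.2 and 23.25 CPM to 38.1, 45.1, 40.1 and 45.3 CPM, a log2 fold change of 0.92 (SE 0.090, adjusted p = 1.31e-10, edgeR). PCDHA11 went from 20.4, 18.9, 18.0 and 21.5 CPM to 27.4, 24.8, 26.5 and 32.5 CPM, a log2 fold change of 0.50 (SE 0.095, adjusted p = 6.11e-05, edgeR). Neither overlapped with WT, and both were also the leaders of their cluster in DLK KO by level per kb. The other C-type isoforms fell less, with log2 fold changes of -0.97 for PCDHAC1, -0.58 for PCDHAC2 and -0.40 for PCDHGC4, while PCDHGC5 at -0.32 was not called. Of the 39 calls, 35 held under every alternative processing that gave an adjusted p, and none changed direction.

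In untreated LZK KO against WT, 31 of 51 members were called, 14 higher and 17 lower, where 33.9% of all genes were, 17.1% higher and 16.8% lower. The median over the members was 0.00. The clusters went different ways: 9 beta isoforms rose and 2 fell, 2 alpha isoforms rose and 7 fell, and 3 gamma isoforms rose and 8 fell. PCDHGB6 rose from 41.5, 42.9, 45.8 and 46.5 CPM to 93.25, 83.7, 106.8 and 87.9 CPM, a log2 fold change of 1.07 with no overlap. PCDHB2 rose from 85.1 to 91.4 CPM in WT to 112.4 to 122.1 CPM, a log2 fold change of 0.41. The other members that rose without overlap included PCDHB7, PCDHB9, PCDHB4 and PCDHB16, with log2 fold changes of 1.05, 0.77, 0.67 and 0.64, and PCDHGC3 with 0.57. PCDHGA7 was again nearly absent, at 0.569, 0.601, 0.0925 and 0.589 CPM, a log2 fold change of -5.08 from the same WT libraries. PCDHGA6, PCDHA2, PCDHA3 and PCDHB15 fell with log2 fold changes of -2.56, -1.79, -1.64 and -1.63. PCDHB5, the WT number 2 of the beta cluster, stood at 23.1, 24.4, 23.9 and 21.7 CPM in LZK KO.

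In the untreated double KO line against WT, 45 of 51 members were called, 38 higher and 7 lower, where 45.7% of all genes were called, 23.6% higher and 22.1% lower. All 15 tested beta isoforms rose, 18 gamma isoforms rose and 2 fell, and alpha was split, with 5 higher and 5 lower. The first isoforms of the gamma cluster changed most. PCDHGA1 went from 0.860, 0.932, 0.141 and 1.19 CPM in WT, where it held 2 to 12 counts, to 36.4, 38.1, 37.8 and 35.0 CPM, a log2 fold change of 5.63. PCDHGA3 went from 0.478, 0.280, 0.281 and 0.894 CPM to 26.4, 32.2, 29.5 and 29.8 CPM, a log2 fold change of 5.96, and PCDHGA2 from a mean of 0.558 to 35.6 CPM, a log2 fold change of 5.93. PCDHGB1 went from 1.72, 1.49, 2.67 and 3.48 CPM to 39.4, 44.8, 37.6 and 36.7 CPM, a log2 fold change of 4.07. PCDHGA4, PCDHGB3 and PCDHGA5 rose with log2 fold changes of 4.85, 4.38 and 4.18. All of these were apart from every WT library, where levels were low, with PCDHGB1 at 1.49 to 3.48 CPM.

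Among the beta isoforms of the double KO line, PCDHB8 rose most, from 2.68, 2.70, 3.09 and 2.98 CPM to 27.8, 28.6, 29.0 and 26.1 CPM, a log2 fold change of 3.27. PCDHB16 rose with a log2 fold change of 2.63. The leader PCDHB2 went from 85.1 to 91.4 CPM in WT to 138.6 to 146.7 CPM, and PCDHB5 from 41.1 to 46.2 CPM to 78.8 to 87.1 CPM. PCDHA10 rose from 52.5, 52.7, 46.6 and 58.8 CPM to 117.3, 113.3, 124.3 and 119.4 CPM. PCDHGA7, lost in both single knockouts, stood at 13.3, 18.0, 13.25 and 11.9 CPM, which overlapped with WT. The 7 members that fell included PCDHA3 and PCDHA2, with log2 fold changes of -1.14 and -1.10, and the C-type isoforms PCDHGC4, PCDHAC2 and PCDHGC3, with -0.98, -0.95 and -0.36. The call for PCDHGC3 was lost in 8 alternatives, among them the fit without any of the WT untreated replicates 1 to 4. PCDHAC1 rose with a log2 fold change of 0.72 and PCDHGC5 with 0.61, a call lost without WT untreated replicate 3 or double KO untreated replicate 2 or 4.

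Set directly against the untreated DLK KO line, the double KO line had 47 of 51 members called, 45 higher and 2 lower, where 46.8% of all genes were called, 24.8% higher and 22.0% lower. The log2 fold changes reached 7.34 for PCDHGA3, 6.99 for PCDHGA2, 6.92 for PCDHGA1 and 6.31 for PCDHGB1, with DLK KO at 0 to 4 counts for PCDHGA3. PCDHGB7, already high in DLK KO, was at 58.85, 61.4, 54.3 and 57.8 CPM in the double KO line. The 2 members that fell were the C-type isoforms PCDHGC4 and PCDHAC2, with log2 fold changes of -0.59 and -0.37. The call for PCDHAC2 was lost without double KO untreated replicate 1 or 4. MAP3K12 is a target in both lines.

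**Figure D3:**
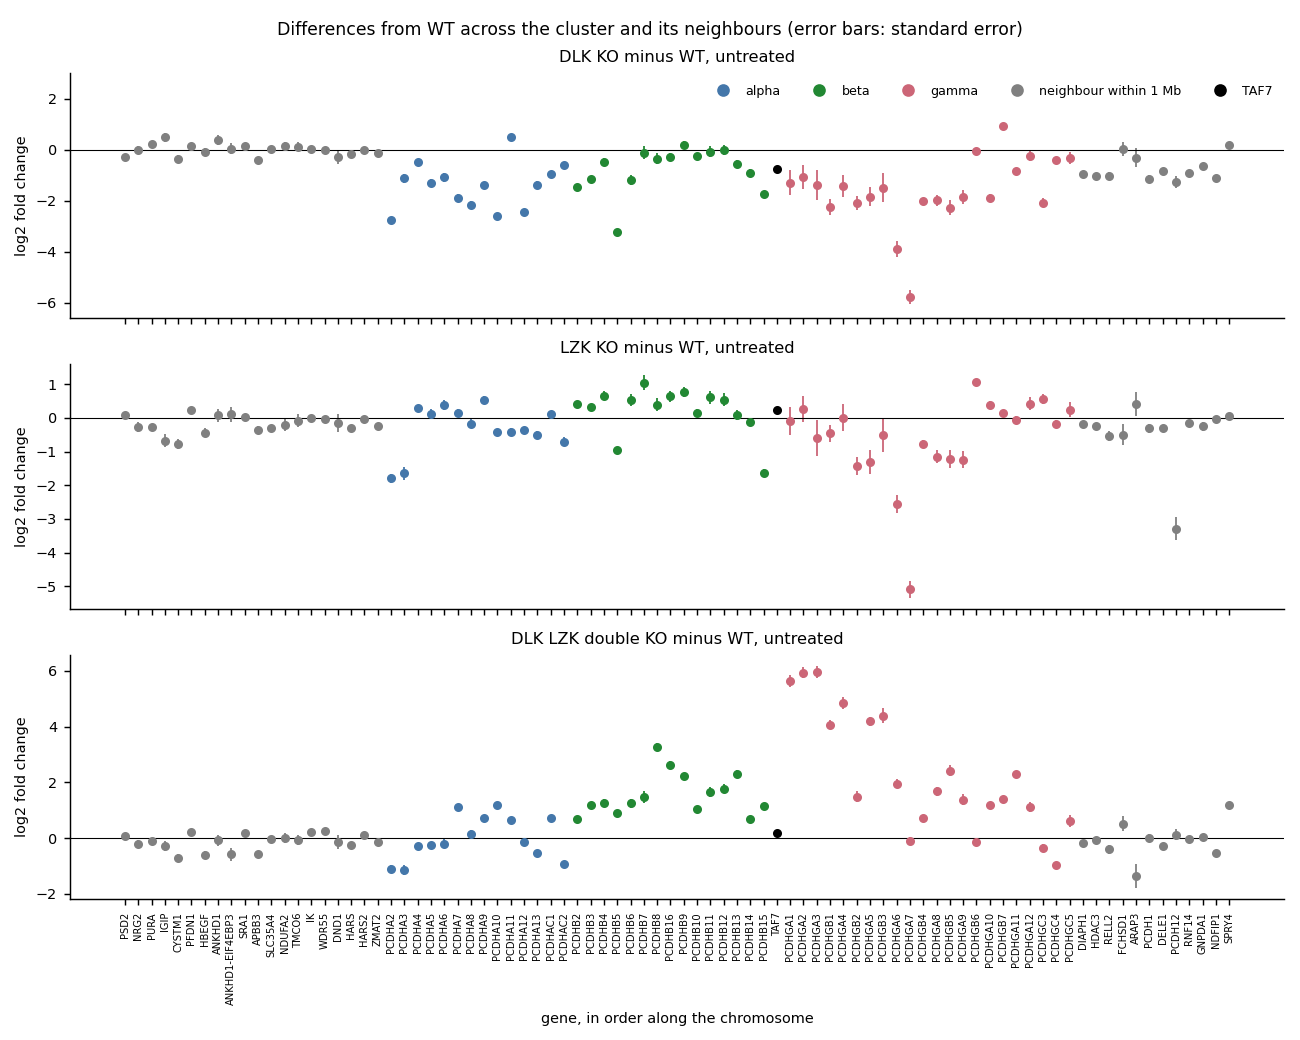
Log2 fold change from untreated WT (y axis; bars are standard errors) of the 51 members that passed the filter, the protein-coding genes within 1 Mb (grey) and TAF7 (black), in order along chromosome 5, for the 3 knockout lines, which share the 4 WT libraries. In DLK KO the 12 grey genes after the cluster have a median of -0.94 and the 20 before it one of 0.02; in the double KO line the first gamma isoforms reach 5.96.

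The members of the DLK KO line lie on a chromosome whose other genes were also lower. The 869 other chromosome 5 genes that passed the filter had a median log2 fold change of -0.18 in untreated DLK KO against WT, beside 0.02 for genes of other chromosomes. The same median was 0.05 in LZK KO and 0.05 in the double KO line. The shift was not even along the chromosome. Of the 32 bins of 5 Mb with at least 10 genes, 10 had a median below -0.5 in DLK KO, and 0 did in LZK KO or the double KO line. The first 20 Mb of the chromosome had bin medians from -1.15 to -0.86, and the stretch from 55 to 85 Mb from -0.94 to -0.65. The bins from 95 to 140 Mb that had at least 10 genes lay between -0.10 and 0.05. The bin from 140 to 145 Mb, which holds the cluster, had a median of -0.39 and the next one -0.44. The highest bin median was 0.28.

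**Figure D4:**
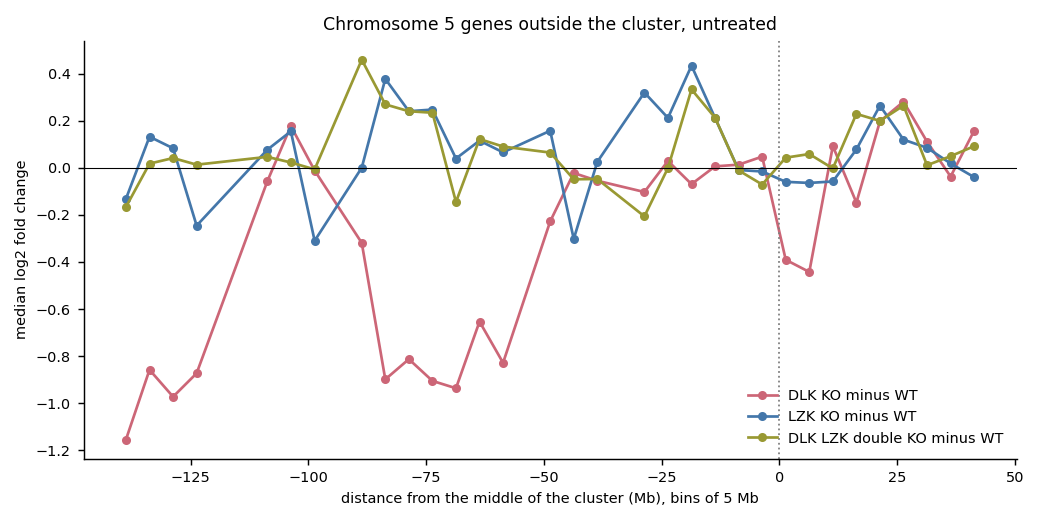
Median log2 fold change from untreated WT of chromosome 5 genes outside the cluster (y axis) in bins of 5 Mb with at least 10 genes, by distance from the middle of the cluster in Mb (x axis, dotted line at the cluster), for the 3 knockout lines. DLK KO is at -1.15 in the first bin, low again from 55 to 85 Mb of the chromosome, and at -0.39 and -0.44 in the bin that holds the cluster and the next one.

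The neighbours differed between the sides of the cluster. The 20 tested protein-coding genes in the 1 Mb before the cluster had a median log2 fold change of 0.02 in DLK KO, with 2 called higher and 4 lower. The 12 genes in the 1 Mb after it had a median of -0.94, with 9 lower and 1, SPRY4, higher at 0.20. Among them PCDH1, a non-clustered protocadherin, went from 91.9 to 41.8 CPM, NDFIP1, an adaptor of ubiquitin ligases, from 351.8 to 161.6 CPM, DIAPH1, a formin that builds actin filaments, from 56.0 to 28.8 CPM, and HDAC3, a histone deacetylase, from 31.7 to 15.6 CPM. Their log2 fold changes were -1.14, -1.12, -0.96 and -1.03. TAF7, a subunit of the general transcription factor TFIID whose gene lies between the beta and gamma clusters, went from 118.7 to 70.65 CPM, a log2 fold change of -0.75. FCHSD1 and ARAP3 after the cluster, at 0.03 and -0.31, were not called.

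Scored in each library against untreated WT, the 12 genes after the cluster had medians from -0.889 to -0.835 in the 4 untreated DLK KO libraries and from -0.856 to -0.823 in the 4 with vincristine. The WT libraries lay between -0.0388 and 0.0456 untreated and between -0.00198 and 0.158 with vincristine, so that all 8 DLK KO libraries lay below all 8 WT libraries. Set beside the median of -0.94 of the genes after the cluster, 11 of the 14 tested alpha isoforms were lower and 3 higher, 5 of the 15 beta isoforms were lower and 10 higher, and 16 of the 22 gamma isoforms were lower and 6 higher. The alpha cluster median was -1.33, the beta median -0.48 and the gamma median -1.66. The genes before the cluster, which lie on the side of alpha, had a median of 0.02. Where between the sides the shift begins was not tested, so -0.94 need not be the level around alpha or beta. PCDHB9 at the middle of the beta cluster had the highest beta value at 0.20. The rise of PCDHGB7 and PCDHA11 and the falls beyond -2 of PCDHGA7, PCDHB5 and PCDHA2 lie away from the median of the genes after the cluster, and this was not tested. DNA copy number was not measured, and its part in the lower levels was not tested.

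In the LZK KO line the genes before the cluster had a median of -0.18, with 1 of 20 higher and 8 lower, and those after it -0.25, with 0 of 12 higher and 4 lower, among them PCDH12 at -3.29. In the double KO line these medians were -0.09, with 2 higher and 5 lower, and -0.06, with 1 higher and 4 lower. In the double KO line against DLK KO, 10 of the 12 genes after the cluster were higher and 0 lower, with a median of 0.72, and TAF7 was higher by 0.92. This shift stands beside the isoform values of that comparison. The gamma isoforms PCDHGA1 to PCDHGA3 changed by log2 values of 6.92 to 7.34 there.

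In experiment 2, members were called under both guides. In untreated ATF2 gRNA against Control gRNA, 13 of 50 members were called, 4 higher and 9 lower, where 39.9% of all genes were, 19.7% higher and 20.2% lower. All 5 called alpha isoforms fell and all 3 called beta isoforms rose, and of 5 called gamma isoforms 4 fell. PCDHA11 went from a mean of 12.1 to 6.83 CPM (log2 fold change -0.83), PCDHA7 from 1.37 to 0.708 CPM (-0.95) and PCDHGB4 from 77.2 to 62.4 CPM (-0.31), and PCDHA4, PCDHA10, PCDHGB6 and PCDHGB7 fell with log2 fold changes of -0.48, -0.35, -0.23 and -0.19. The members that rose were PCDHB13, PCDHGA10, PCDHB9 and PCDHB10, by log2 values of 0.45, 0.44, 0.39 and 0.34, of which PCDHB13 lost its call in 8 alternatives and PCDHB9 in 3. Without ATF2 gRNA untreated replicate 1, 8 members were called, and PCDHB13, PCDHB9, PCDHA7, PCDHA2 and PCDHGA11 were not among them. PCDHB13 also lost its call without ATF2 gRNA untreated replicate 3, 4 or 5 or Control untreated replicate 2, 3 or 5, PCDHA7 without ATF2 gRNA untreated replicate 2 or 3 or Control untreated replicate 1 or 3, and PCDHB9 without Control untreated replicate 2. PCDHA2 and PCDHGA11 were called as lower at -1.06 and -0.65 although libraries of the groups overlapped, and PCDHGA11 lost its call in 8 alternatives, among them those without Control untreated replicate 2, 4 or 5 or ATF2 gRNA untreated replicate 1, 4 or 5. In this line the 12 genes after the cluster had a median of 0.35, with 7 higher and 2 lower, and PCDH1 rose from 89.2 to 241.8 CPM.

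In untreated JUN gRNA against Control gRNA, 10 of 50 members were called, 4 higher and 6 lower, where 11.2% of all genes were, 5.78% higher and 5.46% lower. None of the 15 tested beta isoforms was called by edgeR, with 1 at an unadjusted p under 0.05, and DESeq2 called 12 members in all. PCDHGB6 rose from a mean of 67.2 to 84.2 CPM (log2 fold change 0.33), PCDHGA10 by 0.32 on the log2 scale, and the C-type PCDHGC4 from 70.8 to 82.05 CPM (0.21). PCDHA7 fell from 1.37 to 0.368 CPM (-1.88), PCDHA2 with a log2 fold change of -1.20, PCDHA11 from 12.1 to 8.23 CPM (-0.56), PCDHGB7 with -0.31, PCDHGB4 from 77.2 to 64.1 CPM (-0.27) and PCDHA4 with -0.26. All of these were apart from the Control libraries, and the other member called, PCDHA12 at 0.21, overlapped. PCDHA12 lost its call without Control untreated replicate 1, 2, 3 or 4 or JUN gRNA untreated replicate 1, 2, 4 or 5, and PCDHA2 without Control untreated replicate 2 or 4 or JUN gRNA untreated replicate 1, 4 or 5. Both guides were compared with the same 5 Control libraries.

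Vincristine in WT was accompanied by higher beta levels. There 16 of 51 members were called, 15 higher and 1 lower, where 30.2% of all genes were called, 15.7% higher and 14.5% lower. Of the 15 tested beta isoforms 11 rose, with a cluster median of 0.55. PCDHB9 went from 6.21, 5.03, 4.43 and 4.97 CPM to 9.62, 7.01, 10.2 and 7.44 CPM, a log2 fold change of 0.74 (SE 0.140, adjusted p = 7.31e-05, edgeR). PCDHB4 went from 9.65, 10.5, 8.85 and 11.6 CPM to 17.4, 14.1, 19.9 and 15.0 CPM, a log2 fold change of 0.72 (SE 0.137, adjusted p = 9.01e-05, edgeR). PCDHB15 went from 14.05, 15.1, 14.05 and 16.4 CPM to 22.2, 19.15, 22.4 and 20.3 CPM, a log2 fold change of 0.50, and PCDHB8 from 2.68, 2.70, 3.09 and 2.98 CPM to 5.67, 4.23, 4.35 and 3.67 CPM, a log2 fold change of 0.64. In these 4 the treated libraries were all above the untreated ones, and PCDHB7, with the largest value at 0.89, overlapped. The leader PCDHB2 was not called. Its share went from 31.7% to 28.6%, and the effective number of beta isoforms from 5.87 to 6.97. The 1 member that fell was PCDHAC2, from a mean of 18.0 to 13.8 CPM, a log2 fold change of -0.38 with overlap, which was not called without WT untreated replicate 2.

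The size of this set depended on the libraries and the fit. It was 9 without WT vincristine replicate 3, 22 without WT vincristine replicate 4, the library that stood apart, and 5 when only the 2 WT groups were fitted. The mean progenitor marker sum rose beside it, from 748 to 1560 CPM, and its part in the result was not tested.

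Fewer members were called with vincristine in the knockout lines. In the double KO line 0 of 51 members were called by edgeR, where 0.0658% of all genes were (0.00548% higher, 0.0603% lower), with 5 at an unadjusted p under 0.05 and 0 by DESeq2. A fit of only its untreated and treated groups called 7. Its summed cluster levels were all lower with vincristine, without overlap of libraries. Gamma went from 181.5 to 200.3 CPM per kb untreated to 155.1 to 174.5. Beta went from 153.1 to 162.4 to 141.6 to 149.2, and alpha from 76.75 to 82.03 to 70.72 to 76.55. These sums were not tested. In LZK KO edgeR called 0, where 3.88% of all genes were (2.27% higher, 1.61% lower), with 10 at an unadjusted p under 0.05 and 0 by DESeq2. In DLK KO it called 5, where 6.53% of all genes were (4.24% higher, 2.28% lower): PCDHGB4, PCDHGB7, PCDHGB6 and PCDHB2 rose by log2 values of 0.43, 0.34, 0.32 and 0.29, and PCDHA12 fell by 0.45. None of these 5 was called in every alternative, and without DLK KO vincristine replicate 1 or 2, 1 member was called.

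The difference in response was tested as an interaction. Against WT, the double KO line differed in 15 members, all with a lower response, where 19.4% of all genes differed, 9.21% higher and 10.2% lower. These were 10 beta isoforms and 5 gamma isoforms, with differences from -1.03 for PCDHB7 and -0.93 for PCDHB4 to -0.44 for PCDHGB6. The DLK KO line differed in 7 members, 1 higher and 6 lower, where 19.4% of genes did, 9.95% higher and 9.41% lower. PCDHB8 and PCDHB4 differed by -1.24 and -0.85, and PCDHA11 by 0.42, the last lost in 6 alternatives. Of these 7 members, 2 were called in every alternative. The LZK KO line differed in 3, namely PCDHB7, PCDHB4 and PCDHB9 with -1.20, -0.76 and -0.59, where 12.4% of genes did, 5.88% higher and 6.53% lower, and PCDHB9 lost its call in 11 alternatives. These 3 tests share the WT libraries. Without WT vincristine replicate 4 they gave 21, 9 and 7 members for the double KO, DLK KO and LZK KO line.

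**Figure D5:**
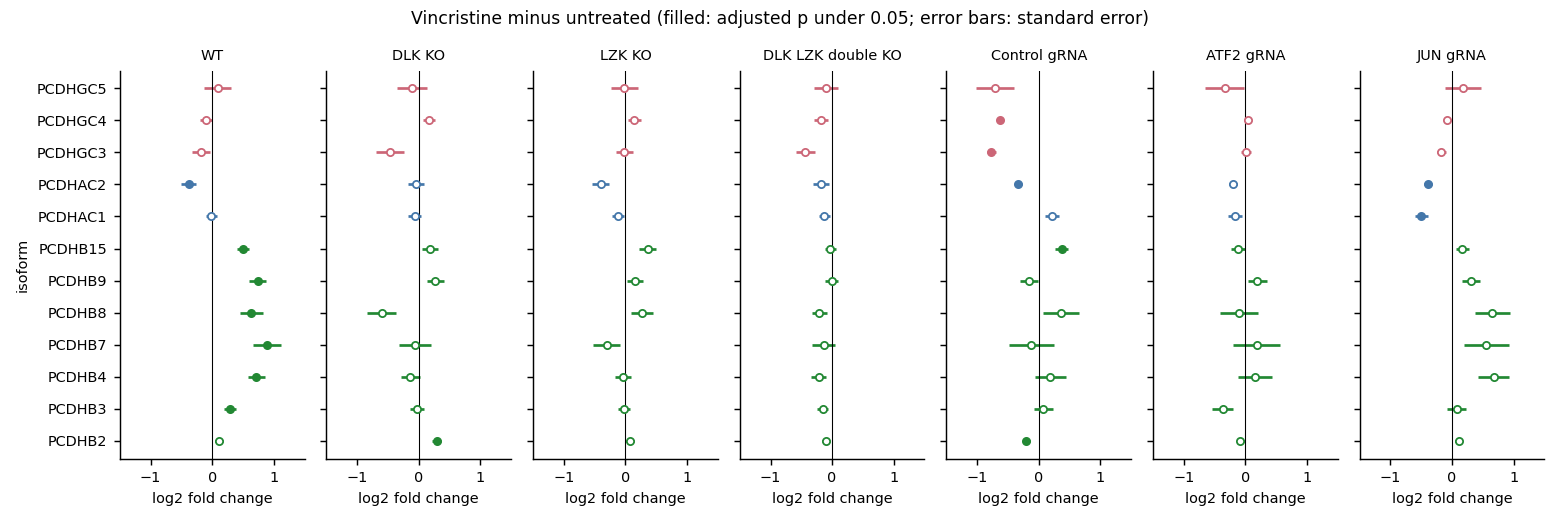
Log2 fold change with vincristine (x axis; bars are standard errors) of 7 beta isoforms and the 5 C-type isoforms in each of the 7 lines, filled where the adjusted p was under 0.05. In WT 6 of the 7 beta points are filled and right of 0, and in Control gRNA PCDHGC3 and PCDHGC4 are at -0.77 and -0.63. The 7 beta isoforms are a selection. Other tested beta isoforms, some of which were not called in WT, are not shown.

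In Control gRNA the C-type isoforms PCDHGC3 and PCDHGC4 fell with vincristine, while the third gamma C-type isoform, PCDHGC5, at -0.71 was not called. Of 50 members 8 were called, 1 higher and 7 lower, where 35.3% of all genes were, 17.1% higher and 18.1% lower. PCDHGC3 went from 33.4, 37.2, 32.1, 31.4 and 31.0 CPM to 18.9, 18.6, 21.3, 19.2 and 18.9 CPM, a log2 fold change of -0.77 (SE 0.074, adjusted p = 5.82e-12, edgeR). PCDHGC4 went from 64.8, 72.25, 67.8, 75.3 and 74.0 CPM to 45.2, 48.2, 46.7, 43.6 and 45.8 CPM, a log2 fold change of -0.63 (SE 0.053, adjusted p = 1.16e-13, edgeR). In both, every treated library was below every untreated one. PCDHAC2, PCDHA12, PCDHB2 and PCDHGA10 fell with log2 fold changes of -0.33, -0.26, -0.20 and -0.20, and their libraries did not overlap. The call for PCDHGA10 was lost without Control untreated replicate 3, 4 or 5 or vincristine replicate 5. PCDHB15 at 0.37 and PCDHA11 at -0.35 overlapped. In WT of experiment 1 the log2 fold changes of PCDHGC3 and PCDHGC4 were -0.18 and -0.10 and were not called.

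The responses of PCDHGC3 and PCDHGC4 differed between the guide lines, and neither was called within ATF2 or JUN gRNA. PCDHGC3 went from 35.3 to 35.4 CPM with ATF2 gRNA and from 31.5 to 27.9 CPM with JUN gRNA, and PCDHGC4 from 73.1 to 75.2 CPM and from 82.05 to 77.6 CPM. As an interaction with the Control response, PCDHGC3 differed by 0.78 (adjusted p = 1.86e-07, edgeR) with ATF2 gRNA and 0.59 (adjusted p = 3.00e-05, edgeR) with JUN gRNA. PCDHGC4 differed by 0.67 (adjusted p = 2.57e-09, edgeR) and 0.55 (adjusted p = 1.89e-07, edgeR). JUN was low in both guide lines. With vincristine it stood at 20.5 CPM with ATF2 gRNA and 6.43 CPM with JUN gRNA, against 237.5 CPM in Control gRNA. In all, 6 members differed with ATF2 gRNA, where 20.6% of genes did (10.2% higher, 10.4% lower), and 7 with JUN gRNA, where 15.8% did (8.71% higher, 7.06% lower). PCDHGA10 and PCDHGB7 also had higher responses with both guides, by 0.32 and 0.31 with ATF2 gRNA and by 0.46 and 0.23 with JUN gRNA, of which PCDHGA10 with ATF2 gRNA lost its call in 4 alternatives and PCDHGB7 with JUN gRNA in 7. With vincristine the mean progenitor marker sum went from 1348 to 2465 CPM (Control), from 1038 to 1707 CPM (JUN) and from 797 to 772 CPM (ATF2), and its part in these differences was not tested.

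Within JUN gRNA, 4 members were called with vincristine, where 15.9% of all genes were, 7.58% higher and 8.31% lower. PCDHAC1 fell from 7.56 to 5.36 CPM (log2 fold change -0.50) and PCDHAC2 from 45.45 to 34.7 CPM (-0.39), and PCDHGA10 and PCDHGB4 were called at 0.26 and 0.17 although libraries overlapped. The response of PCDHAC1 differed from that in Control gRNA by -0.71, where it was 0.21 and not called. Within ATF2 gRNA, 4 members were called, where 6.10% of all genes were, 1.88% higher and 4.22% lower. PCDHA11 and PCDHB10 fell with log2 fold changes of -0.42 and -0.31, and PCDHGB7 was called at 0.19 with overlap. The other was PCDHA3, with 0 counts in all 4 treated libraries and 0 to 15 counts in the untreated ones, for which no fold is given. None of the 4 was called in every alternative.

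Among 31 genes known to act on clustered protocadherin promoters, 6 were higher and 3 lower in untreated DLK KO against WT, where 34.5% of all genes were called. LZK KO had 13 higher and 2 lower, where 33.9% of all genes were called, and the double KO line 11 and 2, where 45.7% were. REST, a repressor of neuronal genes, went from 1.84 CPM in WT to 4.59 in DLK KO and 8.52 in the double KO line, with log2 fold changes of 1.32 and 2.21, and had 1.14 in LZK KO. The median over the 31 genes was 0.04, 0.18 and 0.15 in DLK KO, LZK KO and the double KO line, beside 0.01 over all genes. CDCA7, which acts with the chromatin remodeller HELLS in DNA methylation, fell with log2 fold changes of -1.52, -0.87 and -1.36 in those lines. DNMT3B, a DNA methyltransferase, went from 7.07 CPM in WT to 25.8 CPM in LZK KO, a log2 fold change of 1.87, and was higher by 0.90 in the double KO line. With ATF2 gRNA 12 of the 31 were higher and 7 lower, where 39.9% of all genes were called, and REST had the largest change at 0.77. With JUN gRNA 9 were higher and 1 lower, where 11.2% were called, and REST again had the largest at 0.64.

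With vincristine, 8 of the 31 were higher and 5 lower in WT, where 30.2% of all genes were called, and 11 and 5 in Control gRNA, where 35.3% were. ZNF143, which binds many promoters and chromatin loop anchors, rose from 28.2 to 119.0 CPM in WT (log2 fold change 2.08) and from 20.7 to 81.25 CPM in Control gRNA (1.97). As an interaction its response differed from that in WT by -1.91 (DLK KO), -1.86 (LZK KO) and -2.17 (double KO), and from that in Control gRNA by -1.95 with ATF2 gRNA and -1.93 with JUN gRNA. Of 25 genes whose products bind or process clustered protocadherins, DLK KO had 7 higher and 6 lower (34.5% of all genes called), LZK KO 6 and 4 (33.9%), and the double KO line 4 and 5 (45.7%). NCKAP1 and ABI2, subunits of the WAVE complex that controls branched actin, fell in DLK KO with log2 fold changes of -0.94 and -0.87. In the double KO line they were higher than in DLK KO, by 0.84 and 0.99. The cause of the fall was not tested, and shifts along a chromosome were examined for chromosome 5 only. With ATF2 gRNA 6 of the 25 were higher and 10 lower, where 39.9% of all genes were called, and NLGN1, a postsynaptic adhesion protein, rose by 1.32. With vincristine in Control gRNA 5 were higher and 11 lower, where 35.3% of all genes were called, with CYFIP1 at 0.57 and WASF3 at -0.47. In WT 5 were higher and 4 lower with vincristine, where 30.2% of all genes were called.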

How the data were processed

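The authors deposited raw counts per gene, 1 table for each experiment. Per the submitters' processing notes, reads were trimmed with cutadapt 3.4, aligned with STAR to GRCh38 and counted with featureCounts (Subread 2.0.1). The strand setting and the handling of duplicates and of reads on overlapping genes are not given in the sources used here, so a read on a constant exon of alpha or gamma may have been left out or assigned to several isoforms. Counts of alpha and gamma isoforms are therefore uncertain to that extent.

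Each experiment was fitted whole with edgeR 4.0.16 (R 4.3.3; filterByExpr by group, TMM factors, robust quasi-likelihood, 1 mean per group, Benjamini-Hochberg adjustment), over 18235 and 20759 genes. Levels are CPM with TMM factors. Shares use CPM per kb of exonic bases unshared with another gene (GENCODE 29). The fit was tested on simulated data. Alternatives were RLE factors, DESeq2 1.42.0, other filters, GC offsets, a replicate block, fits restricted to the groups of a comparison, and fits with each library left out. Replicate pairs (104) all differed by more than sampling noise. The members, lists and promoter motifs were chosen with earlier results of these data known. Named are the C-type isoforms, the 3 leading isoforms per cluster and group, called members without overlap (up to 10 a direction) and genes within 1 Mb. Of the 3 largest called genes of each list in a comparison, some are named. Some members outside this rule are named where the text says that they overlapped or were not called, or to complete a comparison, and these were chosen after their values were seen. The 6 pseudogenes of the family were left out of all counts. Motifs and promoters came from RefSeq GRCh38.p14.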

Additional observations from a re-analysis of the deposited data

Results flagged for a closer look

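Within groups, 7 of the 112 sets of libraries examined, which were the C-type isoforms and the summed cluster levels, held a library far from the others, where chance gives about 1 in 20. LZK KO vincristine replicate 4 was high for 4 C-type isoforms: PCDHAC1 at 30.49 CPM against 21.28 to 22.33 in the other libraries, PCDHGC3 at 25.29 against 17.11 to 17.84, PCDHGC4 at 42.83 against 33.15 to 33.85 and PCDHGC5 at 3.872 against 3.088 to 3.214. DLK KO vincristine replicate 2 was low for PCDHAC1 at 10.33 CPM, against 12.15 to 12.48. Control gRNA untreated replicate 4 had a low summed beta level of 30.68 CPM per kb, against 32.83 to 33.22. Control gRNA vincristine replicate 3 had PCDHGC3 at 21.28 CPM, against 18.6 to 19.17.

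By the interaction test of edgeR, 38 responses to vincristine differed between lines. Not all of these calls held under every alternative, as counted in the next section. Against WT, the response in DLK KO differed on the log2 scale by 0.42 for PCDHA11, -0.85 for PCDHB4, -0.95 for PCDHB7, -1.24 for PCDHB8, -0.87 for PCDHB12, -0.52 for PCDHGA11 and -0.83 for PCDHGA12. In LZK KO it differed by -0.76 for PCDHB4, -1.20 for PCDHB7 and -0.59 for PCDHB9. In the double KO line the beta isoforms PCDHB3, PCDHB4, PCDHB6, PCDHB7 and PCDHB8 differed by -0.45, -0.93, -0.69, -1.03 and -0.84. PCDHB9, PCDHB11, PCDHB12, PCDHB13 and PCDHB15 differed by -0.75, -0.78, -0.92, -0.77 and -0.53. The gamma isoforms PCDHGA5, PCDHGA7, PCDHGA8, PCDHGB6 and PCDHGA10 differed by -0.83, -0.59, -0.67, -0.44 and -0.44. Against Control gRNA, the response with ATF2 gRNA differed by -6.91 for PCDHA3, which rests on 0 counts in all 4 treated ATF2 libraries and is no bound, and by -0.49 for PCDHB15, 0.32 for PCDHGA10, 0.31 for PCDHGB7, 0.78 for PCDHGC3 and 0.67 for PCDHGC4. With JUN gRNA it differed by -0.71 for PCDHAC1, 0.30 for PCDHB2, 0.27 for PCDHGB4, 0.46 for PCDHGA10, 0.23 for PCDHGB7, 0.59 for PCDHGC3 and 0.55 for PCDHGC4.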

How the results depend on the processing

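No called member reversed its direction under any alternative. Of the members called, 35 of 39 (DLK KO), 26 of 31 (LZK KO) and 43 of 45 (double KO) against WT, and 46 of 47 in the double KO line against DLK KO, held under every alternative. This was so for 7 of 13 with ATF2 gRNA, 8 of 10 with JUN gRNA, and with vincristine for 5 of 16 in WT and 6 of 8 in Control gRNA. Among differences in response from WT, 2 of 7 (DLK KO), 2 of 3 (LZK KO) and 9 of 15 (double KO) held so. Among those from Control gRNA, 4 of 6 (ATF2 gRNA) and 6 of 7 (JUN gRNA) did. With only the groups compared in the fit, vincristine gave 5 members for WT, 7 in the double KO line and 0 in ATF2 gRNA, and the difference of DLK KO from WT gave 2. Without a filter, vincristine gave 3 in DLK KO and 0 in ATF2 gRNA. In JUN gRNA it gave 7 with DESeq2, 7 with a filter at a mean of 1 CPM and 7 with GC offsets, and the difference of LZK KO from WT gave 5 with GC offsets. Leaving out 1 library in turn gave with vincristine 9 to 22 members (WT), 1 to 5 (DLK KO), 0 to 2 (LZK KO) and 0 to 4 (ATF2 gRNA), 3 to 10 and 2 to 7 for the differences of DLK KO and LZK KO from WT, and 8 to 12 for ATF2 gRNA against Control gRNA. The fewest were 9 without WT vincristine replicate 3. DLK KO gave 1 to 3 without its untreated replicates 1, 3 and 4 or vincristine replicates 1, 2 and 4, LZK KO gave 2 without its untreated replicate 3 and 1 without replicate 4, and ATF2 gRNA gave 8 untreated without its replicate 1. The cause was not tested.

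The chromosome 5 median of DLK KO against WT was -0.46 without a filter, -0.17 at a mean of 1 CPM, -0.20 with GC offsets, -0.17 with only the groups compared and -0.20 to -0.18 with 1 library left out. For LZK KO it was -0.18 without a filter, 0 with GC offsets and 0.0167 to 0.0577 with 1 left out. For the double KO line it was -0.0806 without a filter, 0.0128 with GC offsets, 0.0309 with only the groups compared and 0.0231 to 0.0611 with 1 left out. For the double KO line against DLK KO it was 0 without a filter, 0.26 at a mean of 1 CPM, 0.28 with GC offsets, 0.25 with only the groups compared and 0.28 to 0.31 with 1 left out. For ATF2 gRNA it was 0 without a filter and 0.0282 with GC offsets, and for JUN gRNA -0.007 with GC offsets. Without a filter genes with few counts enter these medians.

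With raw counts and full gene length, the share of the leader was 9.72% and 13.8% for PCDHA12 in WT, 17.2% and 14.6% for PCDHGB4 in WT, 8.53% and 12.6% for PCDHA12 in LZK KO, 36.6% and 32.2% for PCDHGB6 in LZK KO, 32.0% and 17.7% for PCDHA10 and 11.5% and 9.55% for PCDHGB4 in the double KO line, 23.1% and 19.4% for PCDHGB4 in Control gRNA, 23.1% and 26.8% for PCDHGC4 in ATF2 gRNA, and 21.9% and 29.6% for PCDHA12 in JUN gRNA. With raw counts alone, PCDHB2 held 34.5% (WT), 28.4% (DLK KO), 40.8% (LZK KO) and 23.9% (double KO), 50.6% in ATF2 gRNA and 52.5% in JUN gRNA, PCDHA11 20.5% and PCDHGB7 27.8% in DLK KO, PCDHAC2 26.8% in Control gRNA and 32.1% in ATF2 gRNA, and PCDHGC4 23.7% in JUN gRNA. These follow from the length used.

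Samples with the same replicate number showed no general joint deviation: in 0 comparisons was every pair correlated above 0.1. This check cannot tell whether some pairs came from the same differentiation. With the replicate number as a block, the counts of members were 39, 32 and 44 in DLK KO, LZK KO and the double KO line against WT, 47 in the double KO line against DLK KO, with vincristine 15 (WT), 4 (DLK KO), 0 (LZK KO) and 0 (double KO), and 5, 3 and 15 for the differences from WT. They were 13 and 10 for ATF2 and JUN gRNA, 8, 4 and 4 with vincristine in Control, ATF2 and JUN gRNA, and 6 and 7 for the differences. At most 3 of 5 samples correlated best with their own number.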

Other observations

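The member rule leaves out 6 pseudogenes of the family, of which PCDHA14 had 0 counts in all libraries. The means of the other 5 were as follows. Untreated, in the order WT, DLK KO, LZK KO, double KO, PCDHGB8P had means of 5.08, 3.87, 6.75 and 13.2 CPM. PCDHB17P stood at 3.25, 2.11, 6.53 and 10.4 CPM, PCDHB18P at 3.09, 2.13, 3.99 and 9.35 CPM, and PCDHB19P at 2.30, 1.94, 3.39 and 7.98 CPM. PCDHGB9P stood at 4.24, 3.07, 4.84 and 9.64 CPM. In all 5 the double KO line had the highest mean and DLK KO the lowest. These values have no test, and reads of near-identical isoforms could be split between genes and pseudogenes.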
